A study of Rattus norvegicus with 36 samples.

Results

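The plasma protein genes described here are 39 genes that hepatocytes are known for: clotting factors, their inhibitors, complement proteins, apolipoproteins and carriers. They form a list of gene symbols, drawn up with earlier results of these data known. A gene was read from the brightest probe set annotated with its symbol alone, which gave values for 35 of the 39 among 14217 genes so measured. F7, F11 and F13b had no such probe set, and Cfb was annotated only on probe sets shared with another gene. These 4 genes were not analysed here. The members fall into 9 measured procoagulant factors of 12 listed, 6 of 6 inhibitors and fibrinolysis genes, 9 of 10 complement genes and 11 of 11 lipoprotein and carrier genes.

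The study dosed rats with decaBDE (decabromodiphenyl ether), a brominated flame retardant, and measured liver RNA on 36 Affymetrix 3′ expression arrays, 6 for each of 6 groups. The animals were male Harlan Sprague Dawley rats, 7 weeks old at the start. Controls received corn oil alone by gavage, and dosed groups received decaBDE in the same oil at a lowest dose of 0.1 mg/kg, at 0.959 or 9.59 mg/kg, at 95.9 mg/kg or at a highest dose of 959 mg/kg, on 5 days in a row. RNA came from the left liver lobe a day after the last dose. The labels do not state that each array is a separate animal, so p-values measure the spread between arrays. Values are log2 RMA signals, and a signal of one probe set is not a measure of transcript amount against another's.

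Clotting runs as a chain of proteases made in the liver that ends when thrombin (the product of F2) cuts fibrinogen, a protein built from the Fga, Fgb and Fgg chains. Serpins and the protein C system hold the chain back, and plasmin, made from Plg, dissolves the clot. Complement is a parallel protease chain that ends in a membrane pore, and apolipoproteins carry lipids from the liver into blood. Fibrinogen and several complement proteins are also acute phase proteins, whose genes respond to interleukin-6.

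The promoters of the 3 fibrinogen genes are shown because these chains form 1 protein and the signals of Fga and of Fgb each followed that of Fgg from array to array (values further on). Each line gives the 160 bases before the transcription start from RefSeq's GRCr8 assembly, 5′ to 3′ on the gene's own strand. Capitals mark matches, on either strand, to the letters TTNNGCAA (a C/EBP motif), GTTAAT (an arm of the HNF1 motif), CTGGGAA (an interleukin-6 response motif) and TATAAA (the TATA box).
Fga, chr2:170672009-170672168, plus strand: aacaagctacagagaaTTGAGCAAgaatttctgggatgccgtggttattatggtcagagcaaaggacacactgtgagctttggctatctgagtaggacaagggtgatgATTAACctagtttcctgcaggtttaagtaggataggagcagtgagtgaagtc
Fgb, chr2:170700876-170701035, minus strand: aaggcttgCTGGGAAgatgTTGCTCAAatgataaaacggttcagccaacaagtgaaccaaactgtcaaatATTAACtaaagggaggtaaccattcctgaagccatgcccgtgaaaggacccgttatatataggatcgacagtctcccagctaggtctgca
Fgg, chr2:170652923-170653082, plus strand: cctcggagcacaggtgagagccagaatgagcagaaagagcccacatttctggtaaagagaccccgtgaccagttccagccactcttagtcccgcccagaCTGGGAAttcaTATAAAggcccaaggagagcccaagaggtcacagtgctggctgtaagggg

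Fga and Fgb each hold a C/EBP match upstream of an HNF1 match, and Fgb and Fgg each hold an interleukin-6 match in these windows. A promoter entry was matched by symbol for 28 of the 35 measured members, and the 250 bases before the start were searched on both strands. The letters TTNNGCAA were in 11 of the 28 (39.3%), against 9.2% of all 27457 promoters. GTTAAT was in 8 (28.6%, against 6.46%), namely Alb, C5, C8a, F2, Fga, Fgb, Plg and Proc. CTGGGAA was in 8 (28.6%, against 9.33%), namely Ahsg, Apoa4, C3, F9, Fgb, Fgg, Plg and Serpinc1. TATAAA was in 1 (Fgg, 3.57%, against 13.1%). The full HNF1 motif, the stricter C/EBP form TTGCGCAA and the HNF4 letters CAAAGTCCA were in 0 of the 28. A match describes letters in a window and is not evidence of binding.

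The tissue label was checked against marker genes that are not members. Of 10 hepatocyte markers 9 were measured, with Ttr at a mean of 14.53 and Serpina1 at 14.40 in vehicle. The pancreatic Prss1 was at 3.27 and the T cell gene Cd3e at 5.04. The mean over the markers of each list was 13.09 for hepatocyte, 5.23 for pancreas (5 of 5 measured) and 4.87 for lymphocyte (5 of 7). The median of all probe sets was 5.16, so the pancreas list as a whole was not below it. Array medians lay between 5.12 and 5.21, so arrays were on a common scale. The array 0.1 mg/kg replicate 6 departed most from its group over all genes, but was the 9th of 36 by its members. Without it, 0 members passed in any comparison as well. In whole liver, fewer cells of a type and less RNA per cell cannot be told apart.

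The members sat at the upper end of the array's range and varied little. In vehicle, 27 of 35 signals were above 12 and 9 were above 14, and 32 of 35 lay in the top 5% of genes. Pooled within-group SDs had a median of 0.0744, against 0.137 over all genes, and 25 members were among the 10% of genes with the smallest SD. All genes are mostly dimmer, and no set of other genes at a similar level was compared. Outside the members, Serpina1 at 14.40 and Hrg at 13.52 in vehicle had vehicle SDs of 0.008 and 0.039. Level and SD ran in opposite directions over the 35 members (Spearman's rho -0.824, a description across genes on the same arrays).

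**Figure D1:**
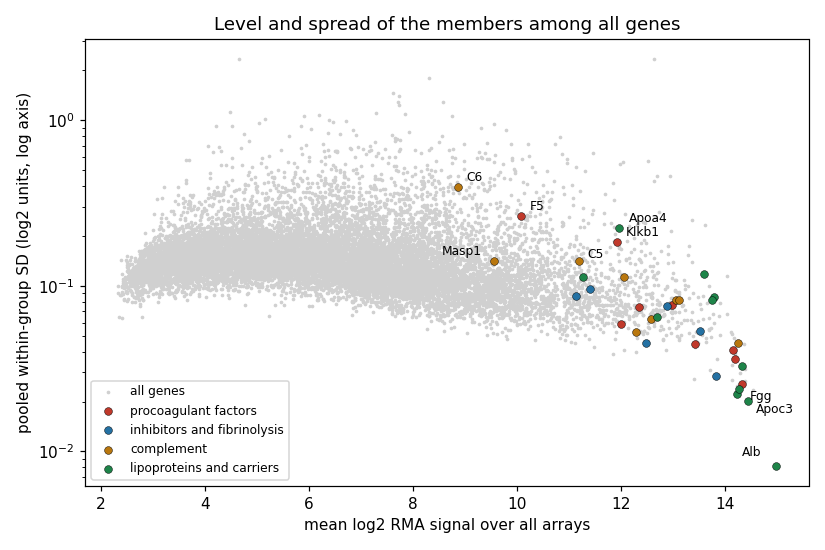
Pooled within-group SD (log axis) against mean log2 RMA signal, with all 14217 genes in grey and the 35 members coloured by role. Most members lie at the lower right, with small spread at high signal, while C6, F5, Apoa4 and Klkb1 stand above the rest of the members with SDs of 0.395, 0.262, 0.224 and 0.183.

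Albumin, the main plasma carrier, shows the ceiling of the scale. Its signal was the highest of all genes on each of the 36 arrays, and 24 of 36 arrays held exactly the same value, 14.98. All 6 arrays at 95.9 mg/kg did so, and by group the count ran from 2 to 6 of 6. Its pooled SD was 0.0082. Its differences from vehicle were at most 0.01 in size, with limma intervals within 0.07 of 0, but values tied at the highest rank say little of whether Alb itself changed. A second probe set of Alb, at 14.85 in vehicle, gave differences from -0.008 to 0.006, also with limma intervals within 0.07 of 0. It lies near the top of the scale as well. Among the brightest probe sets of the other members, that of Apoc3, an inhibitor of lipoprotein lipase, had the smallest spread. Its pooled SD was 0.020, with signals from 14.42 to 14.49 over all arrays.

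No member passed the threshold (limma with Benjamini-Hochberg adjustment over 31042 probe sets, adjusted p under 0.05) in any of the 5 dose comparisons, in the F-test over doses or in the trend with dose rank. The background was low too: 0% of probe sets passed at 0.1 mg/kg, 0.029% at 0.959, 0.116% at 9.59, 0.0902% at 95.9 and 0.11% at 959 mg/kg, with 0.135% in the F-test and 0.393% in the trend. At an unadjusted p under 0.05 the members numbered 4, 2, 6, 2 and 5 of 35 from the lowest dose to the highest, against 3.79%, 6.06%, 8.61%, 7.01% and 6.08% of all probe sets. In the F-test they numbered 3 (background 7.53%) and in the trend 7 (background 8.71%), of which 3 were positive and 4 negative. In a simulation of the 959 mg/kg comparison over 31042 probe sets, 22% of 50 changes of 0.25 were called, 2% of 50 changes of 0.1 and 80% of 50 changes of 0.5. The changed probe sets were drawn at random from all probe sets, each with its own spread. Of the 35 members 29 had an SD under the median of all genes, so these rates are not those of the members.

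The interval of each difference says more than the missing calls. Limma's 95% intervals lay wholly within a 1.2-fold change either way at every dose for 29 of 35 members, and within 1.5-fold for 34. The exceptions at 1.2-fold were F5, Klkb1, C5, C6, Masp1 and Apoa4, and C6 was the exception at 1.5-fold. Without Alb, whose values are largely tied, the counts were 28 and 33 of 34, a count added after seeing the data. These bounds are of signals near the top of the scale and of the brightest probe set. Dimmer probe sets of members so bounded had intervals that passed 1.2-fold. That of Fga did at 0.959, 9.59 (-0.37 to -0.04), 95.9 and 959 mg/kg, and that of Mbl2 at 9.59 and 95.9 mg/kg (0.10 to 0.29 at 95.9). That of Apob did at every dose (-0.67 to 0.26 at 959 mg/kg). At vehicle signals of 2.87 and 3.21, that of Apoe did at 959 mg/kg (-0.05 to 0.28) and 1 of Fgb at 0.959 mg/kg (-0.28 to 0.04). At 959 mg/kg 31 of 35 members had the interval of their brightest probe set within 1.2-fold, against 67.6% of all genes, which are mostly dimmer. The median member difference at the 5 doses was -0.01, -0.01, -0.02, -0.03 and -0.02, with 27, 25, 24, 25 and 24 of 35 members negative, against medians of 0.01, 0.01, 0.01, 0.01 and 0.00 over all genes, 45.1% to 48.1% of them negative. With each array's median subtracted, 24, 16, 19, 21 and 22 of 35 were negative from the lowest dose to the highest, and the median at 0.959 mg/kg turned to 0.00053. After a further quantile normalization 26, 21, 26, 26 and 27 were negative, with a median of -0.04 at 959 mg/kg. The size of the negative majority thus varied with the scaling, and at 0.959 mg/kg its direction did. The 5 comparisons share the vehicle arrays.

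**Figure D2:**
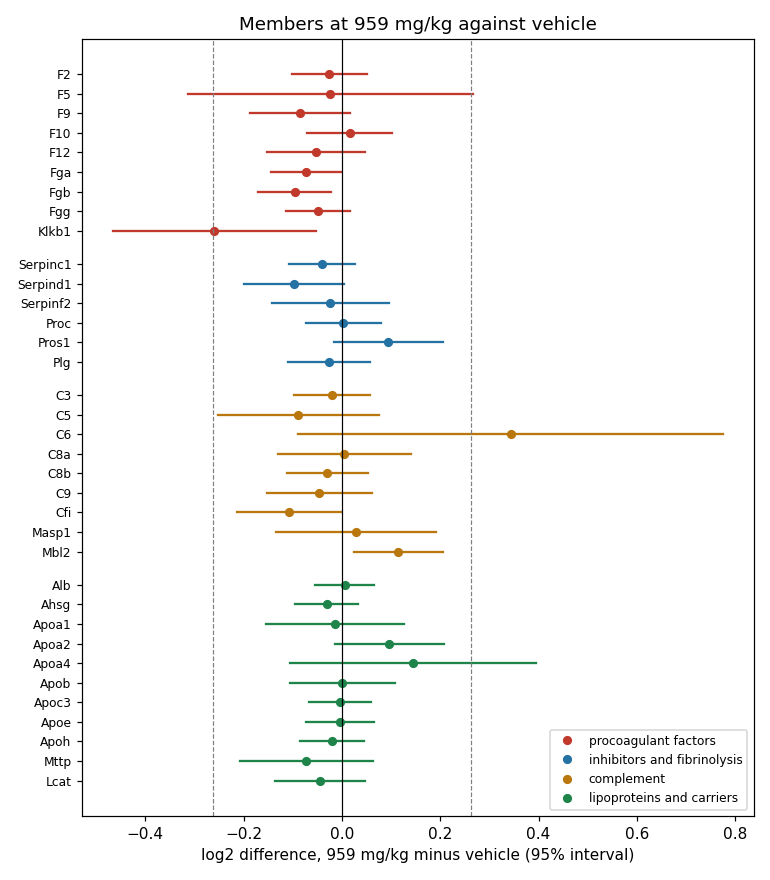
Log2 difference between 959 mg/kg and vehicle for each of the 35 measured members, in 4 role groups, with limma's 95% interval (6 arrays per group). Dashed lines mark a 1.2-fold change either way, and 31 of 35 intervals lie between them, the exceptions being F5, Klkb1, C6 and Apoa4.

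**Figure D3:**
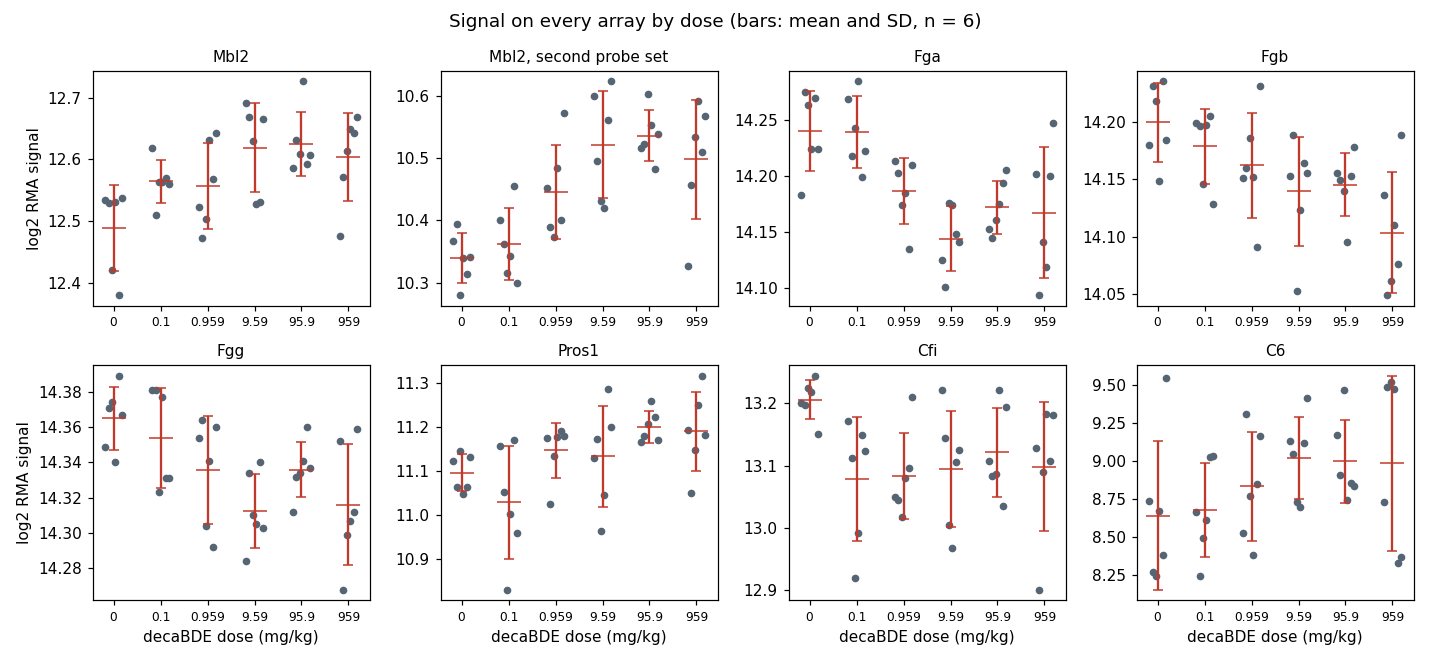
Log2 RMA signal on every array against decaBDE dose (mg/kg) for Mbl2 by its brightest and its second probe set, Fga, Fgb, Fgg, Pros1, Cfi and C6. Points are arrays, bars are mean and SD (6 arrays per dose), and each panel has its own axis, which starts above 0. Mbl2 arrays at 95.9 mg/kg all lie above every vehicle array on both probe sets, and Fga and Fgg arrays at 9.59 mg/kg all lie below every vehicle array.

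Among procoagulant genes, fibrinogen chains had the smallest p-values in the trend and at the 3 highest doses, and Klkb1 at the 2 lowest. Fga, the α chain, had a lowest, median and highest signal of 14.18, 14.24 and 14.27 in vehicle and of 14.20, 14.23 and 14.28 at 0.1 mg/kg. It had 14.13, 14.19 and 14.21 at 0.959 mg/kg, 14.10, 14.14 and 14.18 at 9.59 mg/kg, 14.15, 14.17 and 14.20 at 95.9 mg/kg, and 14.09, 14.17 and 14.25 at 959 mg/kg. All 6 arrays at 9.59 mg/kg lay below every vehicle array, while the other doses overlapped vehicle. Such full separation in either direction held for 3 of 35 members at that dose, against a background of 0.606% of probe sets. The Fga difference at 9.59 mg/kg was -0.10 (SE 0.035, adjusted p 0.41 by limma), and the trend was -0.017 per dose step (SE 0.0059, adjusted p 0.31). A dimmer probe set of Fga gave -0.21 at 9.59 mg/kg (SE 0.083, adjusted p 0.46), the same sign and a larger size.

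Fgb, the β chain, ran from 14.15 over 14.20 to 14.24 in vehicle (lowest, median, highest). The same 3 values were 14.13, 14.20 and 14.20 at 0.1 mg/kg, 14.09, 14.16 and 14.23 at 0.959 mg/kg, and 14.05, 14.15 and 14.19 at 9.59 mg/kg. They were 14.10, 14.15 and 14.18 at 95.9 mg/kg and 14.05, 14.09 and 14.19 at 959 mg/kg. At 959 mg/kg 5 of 6 arrays lay below every vehicle array, and the difference was -0.10 (SE 0.037, adjusted p 0.68 by limma). The other probe sets of Fgb gave 0.00 (SE 0.090) and -0.07 (SE 0.079) at that dose. Their signals in vehicle were 4.37 and 3.21, under the median of all probe sets (5.16), so they say little of this transcript.

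Fgg, the γ chain, had a lowest, median and highest signal of 14.34, 14.37 and 14.39 in vehicle and of 14.28, 14.31 and 14.34 at 9.59 mg/kg, where all 6 arrays again lay below every vehicle array. Its difference there was -0.05 (SE 0.032, adjusted p 0.68 by limma). The 3 chains have spreads far under that of a typical probe set, and limma's moderation raised their SDs toward a prior SD of 0.133: by 1.67 times for Fga, 1.54 for Fgb and 2.19 for Fgg. In an ordinary linear model without that moderation, 2 of 35 members passed in the trend, against 0.419% of all probe sets: Fga (-0.017 per step, adjusted p 0.014) and Fgb (-0.017 per step, adjusted p 0.044). Whether Fga and Fgb count as changed thus turned on the variance model. In fold terms the Fga difference at 9.59 mg/kg was 0.936.

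F2, prothrombin, was the third member whose 9.59 mg/kg arrays all lay below vehicle: it ran from 13.37 to 13.42 there against 13.42 to 13.49 in vehicle, a difference of -0.06 (SE 0.038, adjusted p 0.68 by limma). Klkb1, plasma prekallikrein of the contact pathway, had a lowest, median and highest of 11.87, 12.13 and 12.21 in vehicle and 11.56, 11.77 and 12.31 at 959 mg/kg, which overlap over the whole vehicle range. Its difference was -0.26 at 959 mg/kg (SE 0.10, adjusted p 0.72 by limma) and -0.22 at 0.1 mg/kg (adjusted p 1.0), with no order by dose. F5, the cofactor of factor Xa, gave no difference over 0.07 in size, but its limma interval at 959 mg/kg ran from -0.31 to 0.27. F9, F10 and F12 had differences from -0.09 to 0.02 over all doses. Of the 9 procoagulant members 8 were negative at 959 mg/kg and 9 of 9 at 95.9 mg/kg, with medians of -0.05 and -0.03, and 0 passed the threshold.

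Among inhibitors, Pros1, protein S and cofactor of activated protein C, had the smallest p-values in the F-test and the trend. Its lowest, median and highest signals were 11.05, 11.09 and 11.14 in vehicle, 10.83, 11.03 and 11.17 at 0.1 mg/kg, and 11.02, 11.18 and 11.19 at 0.959 mg/kg. They were 10.96, 11.15 and 11.29 at 9.59 mg/kg, 11.17, 11.19 and 11.26 at 95.9 mg/kg, and 11.05, 11.19 and 11.32 at 959 mg/kg. All 6 arrays at 95.9 mg/kg lay above every vehicle array (2 of 35 members were fully separated at this dose, background 0.567%), and 5 of 6 did at 959 mg/kg. The trend was 0.028 per dose step (SE 0.0092, adjusted p 0.28 by limma).

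Serpind1, heparin cofactor II and a thrombin inhibitor, had a lowest, median and highest of 12.90, 12.96 and 13.03 in vehicle and 12.82, 12.85 and 12.92 at 959 mg/kg. At 95.9 mg/kg 5 of 6 of its arrays lay below every vehicle array, and the trend was -0.019 per step (SE 0.0084, adjusted p 0.49 by limma). Proc, the protein C zymogen, differed by 0.07 at 9.59 mg/kg (SE 0.038, adjusted p 0.64), where 3 of 6 arrays lay above every vehicle array. Serpinc1 (antithrombin), Serpinf2 (the plasmin inhibitor) and Plg had differences between -0.04 and 0.02 at all doses. All 6 inhibitors were bounded within 1.2-fold at every dose.

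The only member with a called probe set was Mbl2, a mannose-binding lectin that starts the lectin pathway of complement when it binds microbial sugars. On its brightest probe set the lowest, median and highest were 12.38, 12.53 and 12.54 in vehicle, 12.51, 12.56 and 12.62 at 0.1 mg/kg, and 12.47, 12.55 and 12.64 at 0.959 mg/kg. They were 12.53, 12.65 and 12.69 at 9.59 mg/kg, 12.59, 12.61 and 12.73 at 95.9 mg/kg, and 12.48, 12.63 and 12.67 at 959 mg/kg. All arrays at 95.9 mg/kg and 5 of 6 at 959 mg/kg lay above every vehicle array. The differences were 0.13, 0.14 and 0.11 at the 3 highest doses (SE 0.045 each, adjusted p 0.35, 0.44 and 0.71 by limma), and the trend was 0.023 per step (SE 0.0075, adjusted p 0.25).

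The second probe set of Mbl2 rose with dose rank and passed the threshold. Its lowest, median and highest were 10.28, 10.34 and 10.39 in vehicle, 10.30, 10.35 and 10.46 at 0.1 mg/kg, and 10.37, 10.43 and 10.57 at 0.959 mg/kg. They were 10.42, 10.53 and 10.62 at 9.59 mg/kg, 10.48, 10.53 and 10.60 at 95.9 mg/kg, and 10.33, 10.52 and 10.59 at 959 mg/kg. All 6 arrays at 9.59 and at 95.9 mg/kg lay above every vehicle array, and 5 of 6 did at 959 mg/kg, where replicate 1, at 10.33, lay inside the vehicle range. The group means rose from 10.34 in vehicle to 10.54 at 95.9 mg/kg and stood at 10.50 at 959 mg/kg.

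The trend of this probe set was 0.040 per dose step (SE 0.0080, adjusted p 0.0085 by limma), the only pass among the 9 other probe sets of 7 members. It held in each of 36 fits that left out an array (adjusted p from 0.0016 to 0.028). With log10 dose over the 5 dosed groups alone, vehicle left out, the slope was 0.036 per log10 unit of dose and the adjusted p 0.37. No single dose passed for it: the differences were 0.18, 0.20 and 0.16 at the 3 highest doses (SE 0.047 each, adjusted p 0.16, 0.13 and 0.35). The 2 probe sets share sign at all 5 doses and differ in call. Beside Mbl2, the mean signal of 8 stellate cell and fibroblast markers (8 of 8 measured) was 6.98 in vehicle (6.77 to 7.21) and 7.10, 7.32 and 7.10 at the 3 highest doses (6.97 to 7.22, 7.14 to 7.53 and 6.79 to 7.67). That of hepatocyte markers was 13.09 in vehicle (13.03 to 13.13) and 13.01, 13.04 and 13.03 there (12.91 to 13.07, 12.97 to 13.13 and 12.89 to 13.19). The median difference of the 9 hepatocyte markers was 0.01, -0.01 and 0.01 at these doses, with 5, 4 and 6 of 9 positive. Single markers ran from -0.39 to 0.11, from -0.57 to 0.16 and from -0.38 to 0.11. The stellate list includes Timp1, which passed in the trend (0.10 per step, adjusted p 0.012 by limma). Of 6 cholangiocyte markers 5 were measured, and 5 of 5 were positive at 95.9 and at 959 mg/kg, with a mean signal of 5.35 in vehicle (5.12 to 5.72), 5.40 at 9.59 mg/kg (5.11 to 5.55), 5.58 at 95.9 mg/kg (5.47 to 5.74) and 5.66 at 959 mg/kg (5.27 to 6.12). Macrophage markers were negative at each dose (values further on). The part of these markers in the Mbl2 trend was not tested.

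Masp1, a protease that binds Mbl2 in that pathway, had a lowest, median and highest of 9.22, 9.47 and 9.76 in vehicle and 9.61, 9.66 and 9.76 at 9.59 mg/kg. The difference was 0.22 at 9.59 mg/kg (SE 0.080, adjusted p 0.40 by limma) and 0.03 at 959 mg/kg, where the arrays ran from 9.27 to 9.79. The other probe sets of Masp1, at 6.45 and 6.35 in vehicle, gave 0.02 (SE 0.076) and -0.10 (SE 0.079) at 9.59 mg/kg. The first was positive at all 5 doses (0.02 to 0.13), as the brightest was, and the other was negative at 4 of 5.

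Cfi, the protease that inactivates C3b and C4b, was below vehicle in the mean at all 5 doses. Vehicle arrays had a lowest, median and highest of 13.15, 13.21 and 13.24, and the medians of the dosed groups were 13.12, 13.06, 13.12, 13.10 and 13.12. The number of arrays below every vehicle array was 5, 5, 5, 4 and 4 of 6. The differences ran from -0.13 at 0.1 mg/kg (SE 0.053, adjusted p 1.0 by limma) to -0.08 at 95.9 mg/kg (adjusted p 0.82). None passed, they share 6 vehicle arrays with a narrow spread (SD 0.032), and there was no order by dose.

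C5, whose cleavage opens the terminal pathway, was the 1 member of 35 fully separated at 0.1 mg/kg (background 0.142%). It ran from 11.01 to 11.18 there against 11.24 to 11.37 in vehicle, a difference of -0.20 (SE 0.081, adjusted p 1.0 by limma), and at 959 mg/kg it was -0.09 with overlapping arrays. C9, the pore-forming protein, differed by -0.13 at 0.1 mg/kg (SE 0.053, adjusted p 1.0) with 4 of 6 arrays below vehicle and by -0.05 at 959 mg/kg. No member was fully separated at 0.959 mg/kg (0 of 35, background 0.409%) or at 959 mg/kg (0 of 35, background 0.445%). C3, C8a and C8b had differences from -0.05 to 0.03.

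C6, another protein of the terminal pore, had the widest spread of all members. Its lowest, median and highest were 8.25, 8.53 and 9.55 in vehicle, 8.24, 8.64 and 9.03 at 0.1 mg/kg, and 8.38, 8.81 and 9.31 at 0.959 mg/kg. They were 8.70, 9.08 and 9.42 at 9.59 mg/kg, 8.75, 8.88 and 9.47 at 95.9 mg/kg, and 8.33, 9.10 and 9.52 at 959 mg/kg. At 959 mg/kg the 6 arrays fell apart, 3 between 9.48 and 9.52 and 3 between 8.33 and 8.73, and in vehicle replicate 6 stood at 9.55 over the other arrays, which ran up to 8.74. The trend was 0.082 per step (SE 0.036, adjusted p 0.50 by limma), and at 959 mg/kg the interval of the difference ran from -0.09 to 0.78. Its pooled SD of 0.395 exceeded each of its 5 differences from vehicle.

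Of the 11 lipoprotein and carrier genes, 0 had an unadjusted limma p under 0.05 at any single dose. In the ordinary linear model without moderation only Ahsg did, at 9.59, 95.9 and 959 mg/kg (unadjusted p 0.0040, 0.017 and 0.021). It did not pass the threshold there (adjusted p 0.30, 0.56 and 0.74), and its differences were -0.04, -0.03 and -0.03. Limma's moderation raised its SD by 2.45 times. At these doses 4, 5 and 4 of 6 Ahsg arrays lay below every vehicle array. Apoa2, a protein of high-density lipoprotein, had a lowest, median and highest of 13.65, 13.73 and 13.93 in vehicle and 13.75, 13.87 and 13.95 at 959 mg/kg, which overlap widely, with a difference of 0.10 (SE 0.054, adjusted p 0.86 by limma). Mttp, which loads lipid onto Apob, ran from 11.10 to 11.46 in vehicle and from 11.07 to 11.37 at 959 mg/kg, with a trend of -0.023 per step (SE 0.011, adjusted p 0.57). Apoa4, a lipoprotein component that varies with feeding, had a median of 11.92 in vehicle (11.86 to 12.12) and 12.15 at 959 mg/kg (11.90 to 12.33), a difference of 0.14 (SE 0.12, adjusted p 0.91).

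Apoa1, Apob, Apoe, Apoh and Ahsg stayed between -0.07 and 0.05 of vehicle in the mean at all doses. Lcat, which esterifies cholesterol in plasma, ran from -0.07 to -0.02. Leaving out Alb, 9 of 10 lipoprotein and carrier members were bounded within 1.2-fold at every dose, Apoa4 being the exception. A dimmer probe set of Apob, at 7.89 in vehicle, gave -0.21 at 959 mg/kg (SE 0.23), and that of Apoe, at only 2.87 in vehicle, gave 0.12 (SE 0.081). Neither passed the threshold in any comparison.

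Other genes of these pathways were read from lists written from general knowledge. Of 21 further coagulation genes 18 were measured, and 0 passed in any comparison. The smallest F-test p in that list belonged to F8, factor VIII (adjusted p 0.16 by limma), with differences of 0.22 at 9.59 mg/kg and -0.13 at 959 mg/kg, followed by Plat, tissue plasminogen activator (0.34 at 95.9 mg/kg), and Thbd, thrombomodulin (0.16 at 959 mg/kg). Of 23 further complement genes 19 were measured and 0 passed. The lowest p-values there were those of Clu (0.12 at 959 mg/kg), an inhibitor of the terminal pore, C4bpb (-0.19), a chain of the C4b-binding protein, and Cfd (-0.01), the alternative pathway protease. Cfd was further from vehicle at low doses: at 0.1 and at 0.959 mg/kg it was negative with the smallest limma p of this list (adjusted p 0.77 at 0.959 mg/kg). The lowest differences of the list at these 2 doses were -0.45 and -0.49. From the lowest dose to the highest 17, 15, 16, 16 and 13 of these 19 were negative, with medians of -0.09, -0.13, -0.09, -0.06 and -0.04. In the same order 2, 7, 1, 1 and 2 of 19 had an unadjusted limma p under 0.05. The background was 3.79%, 6.06%, 8.61%, 7.01% and 6.08% of all probe sets. Macrophage markers (6 of 8 measured) were negative in 6 of 6 at every dose, with medians of -0.49, -0.51, -0.30, -0.19 and -0.22 and 0 past the threshold. At an unadjusted limma p under 0.05 these markers numbered 4, 4, 0, 0 and 0 of 6, against the same background. Their mean signal ran from 7.72 to 8.85 in vehicle and, from the lowest dose to the highest, from 7.38 to 8.58, 7.65 to 8.31, 7.69 to 8.50, 7.36 to 8.84 and 7.80 to 8.61. Their part in the complement values was not tested.

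Of 23 further lipoprotein genes 18 were measured and 1 passed. Sar1b, a GTPase of the vesicles that carry nascent lipoproteins out of the endoplasmic reticulum, rose with dose rank by 0.038 per step (SE 0.0090, adjusted p 0.048 by limma). The call was lost in 29 of 36 fits that left out an array, at adjusted p up to 0.13, and with a further quantile normalization and with the replicate number as a block, at up to 0.10. Lpl, lipoprotein lipase, differed by 0.92 at 95.9 mg/kg (SE 0.27, adjusted p 0.32), and Abcg1, a cholesterol exporter, by -0.35 at 0.959 mg/kg (adjusted p 0.76). Among acute phase genes outside the members, 10 of 11 were measured and 1 passed in the trend. It was Crp, C-reactive protein, which rose by 0.049 per step (adjusted p 0.0028 by limma) and differed by 0.22 at 959 mg/kg (SE 0.053, adjusted p 0.12). The list did not move as 1: in the trend 7 of 10 genes were positive and 3 negative. At the 3 highest doses 5, 6 and 7 of 10 were positive, with medians of 0.00, 0.05 and 0.15. A2m, on the same list, differed by -0.26, -0.51 and -0.38 there (SE 0.31 each) and did not pass.

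Within dose groups Fgg varied with each of the other fibrinogen chains, while Fga with Fgb did not pass. Deviations from the group mean of Fga and Fgg correlated over 36 arrays with r = 0.664 (permutation p 0.00016, adjusted p 0.0013, rho 0.591 with p 0.00092), and r was 0.556 without the 2 arrays farthest from the median. For Fgb and Fgg r was 0.603 (permutation p 0.00067, adjusted p 0.0027, rho 0.578 with p 0.0013), and 0.602 without 2 arrays. For Fga and Fgb r was 0.386 (permutation p 0.049, adjusted p 0.13, rho 0.354), and 0.194 without 2 arrays. Permutations were drawn within dose groups, and p-values were adjusted over the 8 pairs tested of 10 listed by biology. The sign was shared by 5 of 6 groups for each of the 3 fibrinogen pairs. No batch is named in the labels, so no within-batch value can be given.

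The other pairs did not pass. C8a and C8b, chains of the same protein, had r = 0.309 (permutation p 0.15, adjusted p 0.30), Apoa1 and Apoa4 0.215 (adjusted p 0.38 by permutation), and Apoa1 and Apoc3, which lie in the same gene cluster, -0.186 (adjusted p 0.41). C9 and Fgb had 0.167 (adjusted p 0.44) and Mttp and Apob 0.025 (adjusted p 0.89).

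All 595 pairs of measured members were also computed, a step added after the data had been seen. Of these 26 passed an adjusted p of 0.05 by permutation (4.37%), 25 positive and 1 negative, and 19 also by rank. Pairs of other genes were not computed on these arrays. The share therefore has no background beside it, and neither have the listed pairs, so they do not show a property of the members. The highest was that of Serpinf2, the plasmin inhibitor, with Plg, the precursor of plasmin (r = 0.823, rho 0.822, adjusted p 0.0020, r 0.838 without 2 arrays). F9 with C8a had r = 0.792 (rho 0.719, adjusted p 0.0020) and 0.703 without 2 arrays, and Serpinf2 with C9 0.728 (rho 0.704, adjusted p 0.0020). The negative pair was C9 and Mttp (-0.649, rho -0.553, adjusted p 0.012). The permutation p of the first 3, 1e-05, is the smallest that 100000 resamples can give. The median r over all pairs was 0.132, and 0.245 with each array's median subtracted. Subtracting the same number from all members of an array can itself raise r, and a shift shared by the members was not tested. C9, Cfi and Fgb had the most partners, 5 each, and 7 of the 26 pairs joined members of the same role, where 142 of 595 pairs did.

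**Figure D4:**
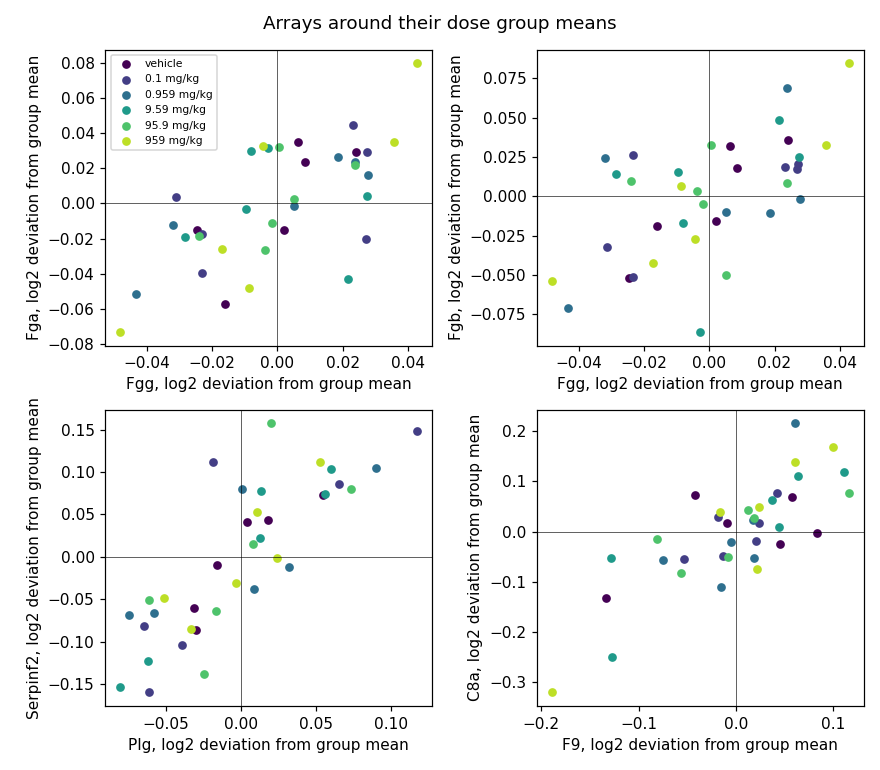
Deviation from the dose group mean (log2) on each of 36 arrays for Fga and Fgb against Fgg, Serpinf2 against Plg, and C8a against F9, coloured by group. Each panel shows a positive relation over the 36 arrays, with r = 0.664, 0.603, 0.823 and 0.792. In the 2 fibrinogen panels r was positive in 5 of 6 groups, and the lowest within a group was -0.189 for Fga and -0.134 for Fgb.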

How the data were processed

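The values were deposited by the authors as 1 table of log2 signals, made with RMA and the affy package per the submitters' processing notes, whose versions are not given in the sources used here. RMA quantile-normalizes, so only changes relative to other probe sets are seen. Removing 57 array controls from the 31099 probe sets left 31042. Of these, 20826 had 1 symbol, 436 several and 9780 none. The linear model, with a mean for each dose group, came from limma 3.58.1 under R 4.3.3, and eBayes added 5.12 prior to 30 residual degrees of freedom. The series' design text names maanova at a false discovery rate of 5%, which was not at hand. Benjamini-Hochberg adjustment ran across the whole table within each comparison. Dose rank runs from 0 to 5. Errors are limma standard errors and intervals are at 95%; the number of arrays limits the precision.

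The fit was tested on simulated data. Members and lists were chosen with earlier results of these data known. Named genes are those with the smallest F-test and trend p-values in each role, the brightest, the dimmest, the most and the least variable, and the genes of the listed pairs; the remaining members are summarised. Singled-out cases such as C5, F2 and the 595 pairs were chosen after their values were seen. Correlations used numpy 2.4.6 and 100000 permutations within groups. Alternatives were other scalings, filters, variance models, array weights, a replicate block, fits of 12 arrays and each array left out.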

Additional observations from a re-analysis of the deposited data

Results flagged for a closer look

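In 209 groups of 6 arrays, 1 for each member and dose with unequal values, 14 held an array far from the other 5 by Dixon's criterion, which chance meets in about 1 in 20 groups. That is 6.7%, and no explanation was tested. The Alb group at 959 mg/kg meets it by construction, since its other 5 arrays hold the same value. High arrays were F12 at 12.56 (0.1 mg/kg replicate 5), C3 at 14.302 (vehicle replicate 1), Mbl2 at 12.726 (95.9 mg/kg replicate 4), Alb at 14.993 (959 mg/kg replicate 5), Mttp at 11.504 (9.59 mg/kg replicate 3) and Lcat at 12.882 (vehicle replicate 1). Low arrays were Pros1 at 11.025 (0.959 mg/kg replicate 2), Cfi at 12.901 (959 mg/kg replicate 2), Alb at 14.955 (9.59 mg/kg replicate 2), Ahsg at 14.196 (95.9 mg/kg replicate 4) and Apob at 13.612 (95.9 mg/kg replicate 6). Apoc3 at 14.418 (vehicle replicate 2), Apoh at 14.221 (vehicle replicate 1) and Apoh at 14.216 (9.59 mg/kg replicate 3) were also low. The vehicle replicate 1 array accounts for C3, Apoh and Lcat.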

How the results depend on the processing

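The count of members past the threshold stayed at 0 in the 5 dose comparisons and the F-test under all alternatives run, and in each of 36 fits without an array (0 to 0). In the trend it became 2 (Fga and Fgb) without variance moderation, and stayed at 0 otherwise. Of 2415 member values, 2413 kept their side of the threshold, the other 2 being those of Fga and Fgb. The trend of the second Mbl2 probe set kept its call in 7 of 8 other settings, and was lost with log10 dose over the dosed groups (0.036). Replicate numbers did not pair the arrays: same-numbered arrays had a mean correlation of -0.027, and 3 of 36 correlated best with their own number. With the replicate block 0 members passed in each comparison, while Fga and Fgg had r = 0.73 and Fgb and Fgg 0.58. The fixed pairs kept their calls in every alternative run. In the simulation 2% of changes of 0.1 in randomly drawn probe sets were called, and the rate for the members was not estimated. Tied signals at the highest rank limit what Alb can show.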

Other observations

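Relations of the members to marker scores and to the 3′ minus 5′ signal of the array's actin and GAPDH controls were computed after the data had been seen, 175 in all. Over 36 arrays, with dose group means removed, Apob followed the actin measure (r = 0.656, rho 0.685, permutation p 3e-05, adjusted p 0.0053, r 0.632 without 2 arrays). C3 followed the actin (r = 0.633, rho 0.563, permutation p 0.00076, adjusted p 0.033) and the GAPDH measure (r = 0.60, rho 0.592, permutation p 0.0002, adjusted p 0.012). F5 followed the actin measure (r = 0.561, rho 0.524, permutation p 0.00095, adjusted p 0.033). C5 followed the score of the 10 acute phase genes (r = 0.564, rho 0.619, permutation p 0.0002, adjusted p 0.012, r 0.559 without 2 arrays). Without 2 arrays r was 0.532 and 0.561 for C3 and 0.536 for F5. No member passed with the macrophage or lymphocyte score. Among genes of the pairs above, Fga and Fgg had r = -0.406 and -0.425 with the GAPDH measure (adjusted p 0.20 and 0.17 by permutation) and Fgb -0.05. With the actin measure Plg had 0.537 and Serpinf2 0.36 (adjusted p 0.15 and 0.37 by permutation), and F9 and C8a -0.161 and -0.158. These did not pass, and the part of RNA quality in the pair correlations was not tested.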
